A study of Mus musculus with 4 samples.

Results

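The oligoadenylate synthetase (OAS) and guanylate-binding protein (GBP) genes were examined in an ATAC-seq series on RAW264.7 cells, a mouse macrophage-like cell line. ATAC-seq measures open chromatin from the DNA into which a transposase can insert sequencing adapters. The members were all rows of the 4 deposited value tables whose gene name was Oas1a, Oas2, Oas3, Oasl1 or Oasl2 (OAS) or Gbp2, Gbp3, Gbp5 or Gbp7 (GBP). These were 9 of 26614 gene names, with 17 of 80929 accessible regions: 9 regions for the 5 OAS genes and 8 for the 4 GBP genes. Each region carries the gene name the authors gave it.

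The series holds 2 libraries titled Gel, from cells treated with a hydrogel, and 2 titled CuNZ@Gel, a hydrogel that the series title describes as carrying a nanozyme. All cells were of the same line, with no genetic change named in the labels, and were cultured for 48 h with the material. The groups rest on the titles, because every sample carries one treatment note, which names CuNZ@Gel alone. Whether replicates were separate cultures is not said in the labels. The p-values therefore cover only library-to-library spread, possibly a technical one.

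OAS enzymes detect double-stranded RNA, a sign of virus infection, and make short oligoadenylate chains. These chains act as a messenger of the antiviral response in the infected cell. GBPs are large GTPases that assemble on intracellular bacteria and on the vacuoles of pathogens, and they promote inflammasome activation in macrophages. Both families are induced by interferons, OAS genes mainly through interferon-stimulated response elements (ISRE) and GBP genes also through gamma-activated sites (GAS).

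The promoters of 6 members are shown because they hold the letters of such motifs. RefSeq promoters of build GRCm38.p6, from 250 bases before to 50 after each start, were searched on both strands for the ISRE, a pair of GAAA runs on one strand with any 2 bases between them, and the GAS letters TTCNNNGAA, which read the same on both strands. Of the 9 members, 8 had a promoter in this table, and Gbp3 had 2, giving 9 promoters. Stretches around the matches are printed along the gene's strand, with matches of either motif in capitals. The GRCm38.p6 coordinates cannot be set against the GRCm39 coordinates of the regions, so no match was placed inside a region.
Gbp2 (chr3:142620563-142620662, plus strand): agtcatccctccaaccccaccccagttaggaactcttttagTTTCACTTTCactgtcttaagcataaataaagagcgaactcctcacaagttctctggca
Gbp3 (chr3:142559944-142560043, plus strand): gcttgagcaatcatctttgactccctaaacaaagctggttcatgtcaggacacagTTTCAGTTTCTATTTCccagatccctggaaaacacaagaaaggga
Gbp5 (chr3:142496754-142496933, plus strand): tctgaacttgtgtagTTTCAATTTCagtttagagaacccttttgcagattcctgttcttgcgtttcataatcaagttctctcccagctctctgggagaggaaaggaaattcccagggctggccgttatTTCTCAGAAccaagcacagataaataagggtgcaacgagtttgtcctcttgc
Gbp7 (chr3:142530216-142530335, plus strand): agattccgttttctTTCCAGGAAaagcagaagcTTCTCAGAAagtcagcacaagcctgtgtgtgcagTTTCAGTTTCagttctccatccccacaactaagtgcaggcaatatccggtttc
Oas3 (chr5:120777660-120777759, minus strand): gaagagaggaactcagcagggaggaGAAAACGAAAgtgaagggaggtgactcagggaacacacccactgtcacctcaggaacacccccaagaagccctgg
Oas1a (chr5:120907526-120907625, minus strand): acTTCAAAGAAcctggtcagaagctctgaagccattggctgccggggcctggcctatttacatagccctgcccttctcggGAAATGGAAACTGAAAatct

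ISRE letters were present in 6 of the 9 member promoters, against 3.44% of all 32851 promoters in the table. In Gbp2, Gbp3, Gbp5 and Gbp7 they lay on the strand opposite to the gene, and in Oas3 and Oas1a on the gene's own strand. The matches began 165 bases before the start in Gbp5, 59 in Gbp2, 53 in Gbp7 and 75 in Oas3. Gbp3 and Oas1a each held a pair of overlapping matches, beginning 45 and 39 bases before the start in Gbp3 and 20 and 14 bases before it in Oas1a. GAS letters were present in 3 of the 9 promoters, those of Gbp5, Gbp7 and Oas1a, against 8.30% of all. A further GAS match of Gbp5, beginning 245 bases before the start, lies outside the printed stretch. Oasl1 and Oasl2 held neither run of letters in this window.

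Recovered reads in regions numbered 18843458 and 17914638 in Gel replicates 1 and 2, and 7440949 and 10236695 in CuNZ@Gel replicates 1 and 2. Values are RPM, reads per 1000000 after the authors' scaling, and a gene's level is the sum over its regions. Changes are CuNZ@Gel minus Gel on the log2(RPM + 1) scale, with the standard error (SE), the limma test and Benjamini-Hochberg adjustment over all features. Depth and its distribution differed with the groups. The background pileup is the lowest expected read pileup recovered from the fold enrichments and p-values of each library's peaks. It is an indirect estimate that rested on 7 and 6 peaks in Gel and 7 and 7 in CuNZ@Gel. Per unit of background pileup, in units of 1000000 reads, Gel libraries held 18.8 and 18.6 region reads and CuNZ@Gel libraries 6.37 and 8.53. This difference cannot be told apart from the treatment. Changes also followed the level: among deciles of all regions ordered by mean level, the median change went from 0.35 in the weakest to -0.60 in the strongest. Macrophage markers had regions for 8 of 8 genes, with a summed RPM of 963 to 967 in Gel and 822 to 824 in CuNZ@Gel. Fibroblast markers had regions for 4 of 6 genes (79.4 to 79.6 against 84.3 to 90.6; Dcn and Thy1 had none), and endothelial markers for 4 of 4 (54.0 to 55.5 against 66.6 to 74.4). Lymphocyte markers had them for 5 of 7 (35.3 to 37.6 against 30.2 to 41.0; Cd3g and Cd79a had none), and epithelial markers for 2 of 4 (10.7 to 11.0 against 11.2 to 15.4; Krt5 and Krt14 had none). The part of these markers in the results was not tested.

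Among the 9 genes, accessibility summed over regions was higher in CuNZ@Gel for Oas1a, Oas2 and Gbp2, was lower for Oas3, and did not pass the test for the other 5. Of all 25900 genes tested, 20.5% were called higher and 36.1% lower, so 3 and 1 of 9 members stand beside a background that moved widely. The count called higher was 0 without Gel replicate 2 or without CuNZ@Gel replicate 1, 2 when Gel replicate 1 was left out and 4 when CuNZ@Gel replicate 2 was. The median change was 0.27 over the 9 genes, 0.40 over the OAS genes and 0.20 over the GBP genes, beside -0.10 over all genes. The groups did not overlap for 7 members, 5 higher and 2 lower in CuNZ@Gel, beside 30.9% and 45.9% of all genes. These calls depend on the scaling. Cyclic loess, which removes the trend with level, called 4 members higher and 0 lower, beside 20.7% and 15.4% of all genes. Scaling to total reads in regions gave 4 higher and 0 lower, beside 34.3% and 18.7%. Scaling to the background pileup shifted the median of all genes to -1.06 and called 0 members higher and 7 lower, beside 2.77% and 75.5% of all genes.

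**Figure D1:**
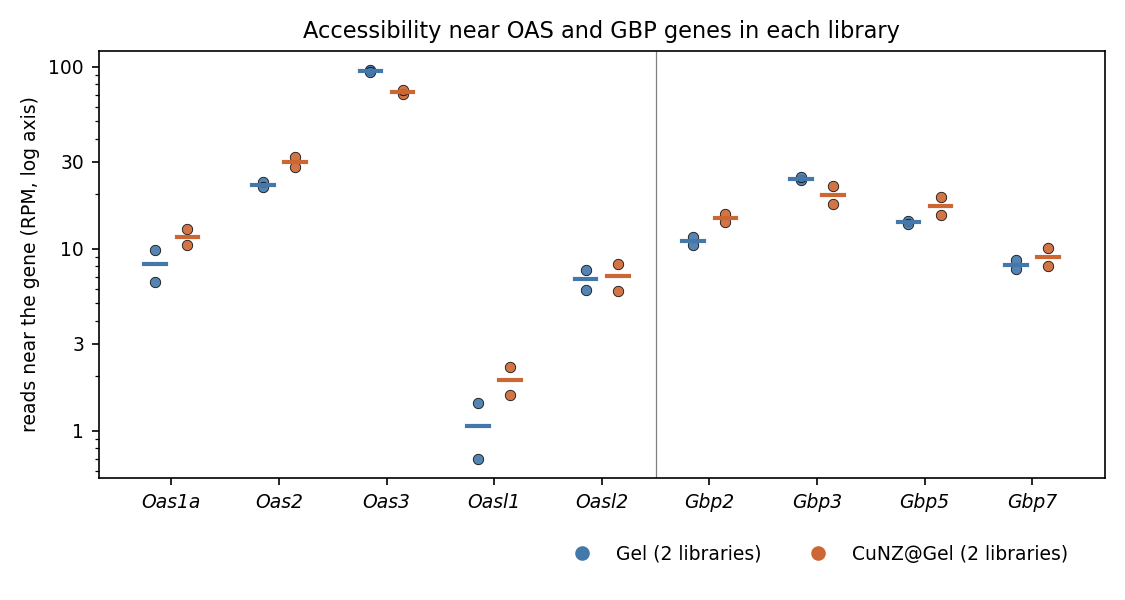
Accessibility of the 9 OAS and GBP genes in each of the 4 libraries, as reads per 1000000 summed over the regions named for a gene, on a log axis; points are libraries and bars are the means of each group's 2 libraries. Oas3 lies highest, between 70.2 and 95.5, and is the called gene in which both CuNZ@Gel libraries lie below both Gel libraries.

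Oas3 encodes the large synthetase with several synthetase-like units, which acts in the response to virus infection. Its level was 95.5 and 92.9 RPM in Gel and 70.2 and 74.3 in CuNZ@Gel, or 94.2 ± 1.82 against 72.3 ± 2.87 (mean ± SD, n = 2 each). Both CuNZ@Gel libraries lay below both Gel libraries, by more than the spread within groups. The change was -0.38 ± 0.07 (SE; limma adjusted p = 7.36e-05), and it turned to 0.18 with cyclic loess (adjusted p = 0.0441). With total-read scaling it was -0.097 and not called (adjusted p = 0.234). Most of the level lay in 1 region, chr5:120913212-120914669, with 86.0 and 83.2 RPM in Gel and 58.2 and 62.4 in CuNZ@Gel. That region held 89.8% of the gene's RPM in Gel and 83.5% in CuNZ@Gel. Its change was -0.48 ± 0.08 (limma adjusted p = 1.01e-06) on the deposited scale and 0.15 with cyclic loess (adjusted p = 0.137). It belonged to the strongest decile of regions, of which 86.9% were called lower, with a median change of -0.60. The second region, chr5:120915610-120915969, had 9.45 and 9.72 RPM in Gel and 12.0 and 11.9 in CuNZ@Gel. Its groups did not overlap, but the change of 0.29 ± 0.16 did not pass the limma test (adjusted p = 0.144). The bounds of this second region are those of 1 peak, called in CuNZ@Gel replicate 2 only. A higher CuNZ@Gel value was thus favoured by the region's definition.

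Oas2 encodes the middle-sized synthetase. Its summed level was 23.2 and 21.7 RPM in Gel and 31.9 and 28.1 in CuNZ@Gel, and the groups did not overlap. The means were 22.5 ± 1.05 and 29.98 ± 2.69 (SD, n = 2 each), with a change of 0.40 ± 0.11 (limma adjusted p = 0.00509), 0.44 with cyclic loess and -0.62 with background scaling. Without Gel replicate 2 the adjusted p was 0.0514, and without CuNZ@Gel replicate 1 it was 0.0521.

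The difference at Oas2 lay mainly in 1 of its 3 regions. Region chr5:120879070-120879482 had 3.44 and 2.54 RPM in Gel, from 59 and 41 reads, and 10.7 and 8.97 RPM in CuNZ@Gel, from 88 and 101 reads. Both CuNZ@Gel values lay well above both Gel values, with means of 2.99 ± 0.639 and 9.82 ± 1.20 (SD, n = 2 each). The change was 1.44 ± 0.21 (limma adjusted p = 1.07e-07), 1.34 with cyclic loess (adjusted p = 8.85e-08) and 0.56 with background scaling (adjusted p = 0.0566). Leaving out each library in turn gave changes from 1.28 to 1.61, all called. The share of the gene's RPM held by this region was 13.3% in Gel and 32.8% in CuNZ@Gel. Regions in the same decile by level had a median change of 0.04, with 25.8% called higher.

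The strongest Oas2 region, chr5:120887442-120888303, had 17.4 and 16.0 RPM in Gel and 16.4 and 15.6 in CuNZ@Gel. The groups overlapped, and the change of -0.06 ± 0.14 did not pass the limma test (adjusted p = 0.764). The remaining region, chr5:120879731-120880469, lay 248 bases from the first and had 2.33 and 3.22 RPM in Gel and 4.85 and 3.55 in CuNZ@Gel. Its change of 0.46 ± 0.25 did not pass either (adjusted p = 0.131).

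Oas1a encodes a small synthetase and had 1 region, chr5:121044924-121045875. Its level was 9.80 and 6.56 RPM in Gel and 12.9 and 10.4 in CuNZ@Gel, so the lower CuNZ@Gel library lay close to the higher Gel library without overlap. The means were 8.18 ± 2.29 and 11.6 ± 1.74 (SD, n = 2 each). As a gene its change was 0.48 ± 0.19 (limma adjusted p = 0.0372), 0.48 with cyclic loess and -0.48 with background scaling. The call rested on single libraries: the change was 0.73 without Gel replicate 1 (adjusted p = 0.00768), 0.22 without Gel replicate 2 (adjusted p = 0.475) and 0.33 without CuNZ@Gel replicate 1 (adjusted p = 0.242).

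Oasl1 and Oasl2 encode OAS-like proteins; that of Oasl1 is known to inhibit translation of Irf7 mRNA. Oasl1 had 1 region, chr5:115064346-115064740, with 0.699 and 1.42 RPM in Gel and 1.58 and 2.22 in CuNZ@Gel, from 12, 23, 13 and 25 reads. The groups did not overlap, yet the change of 0.51 ± 0.31 did not pass at this depth (limma adjusted p = 0.174). In absolute size it was the largest change of the 5 OAS genes on the deposited scale only. It was 0.19 with cyclic loess (limma adjusted p = 0.666) and 0.25 without Gel replicate 1. Oasl2 had 7.64 and 5.88 RPM in Gel and 8.25 and 5.86 in CuNZ@Gel, with overlapping groups. Its change was 0.05 ± 0.20 (limma adjusted p = 0.864). Its stronger region, chr5:115035148-115035940, had a change of -0.20 ± 0.23, and the other, chr5:115040424-115040925, one of 0.34 ± 0.28. Neither passed the limma test (adjusted p = 0.531 and 0.342), though without CuNZ@Gel replicate 2 the second was at 0.77 (adjusted p = 0.0373).

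Gbp2 encodes a GTPase that binds to bacterial surfaces and pathogen vacuoles. It had 1 region, chr3:142325904-142327342, with 10.5 and 11.6 RPM in Gel and 15.4 and 14.0 in CuNZ@Gel. The groups did not overlap, and the means were 11.1 ± 0.804 and 14.7 ± 0.963 (SD, n = 2 each). As a gene its change was 0.38 ± 0.15 (limma adjusted p = 0.0341), 0.46 with cyclic loess (adjusted p = 0.0184) and -0.60 with background scaling. The call was lost without Gel replicate 1 (0.31, adjusted p = 0.225), Gel replicate 2 (0.45, adjusted p = 0.0748) or CuNZ@Gel replicate 1 (0.32, adjusted p = 0.126).

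Gbp5 encodes a GTPase known to promote NLRP3 inflammasome assembly. Its summed level was 14.2 and 13.7 RPM in Gel and 19.2 and 15.2 in CuNZ@Gel, with means of 14.0 ± 0.392 and 17.2 ± 2.80 (SD, n = 2 each). The groups did not overlap, but the change of 0.27 ± 0.14 did not pass the limma test (adjusted p = 0.115). Without CuNZ@Gel replicate 2 it was 0.43 (adjusted p = 0.0278) and without CuNZ@Gel replicate 1 it was 0.11 (adjusted p = 0.549). It was 0.10 with cyclic loess (adjusted p = 0.620) and 0.54 with total-read scaling (adjusted p = 0.00378).

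As at Oas2, 1 of the Gbp5 regions carried most of the difference. Region chr3:142204912-142205108, 197 bases long, had 0.408 and 0.805 RPM in Gel and 2.91 and 4.71 in CuNZ@Gel. These rest on 7 and 13 reads in Gel and 24 and 53 in CuNZ@Gel, and the groups lay far apart. The region's bounds are those of 1 peak, called in CuNZ@Gel replicate 2 only. It passed the filter on low values through the CuNZ@Gel libraries and 1 Gel library. A higher CuNZ@Gel value was thus favoured by the region's definition and the filter, and the region's p-values are not independent of that selection. Its change was 1.57 ± 0.30 (limma adjusted p = 1.73e-05). It was 1.29 with cyclic loess (adjusted p = 0.000263) and 0.97 with background scaling (adjusted p = 0.00533), the one member region called higher on that scale, beside 4.85% of all regions. Leaving out each library in turn gave changes from 1.29 to 1.84. Its share of the gene's RPM was 4.35% in Gel and 22.2% in CuNZ@Gel. The other Gbp5 regions had changes of -0.07 ± 0.22, 0.07 ± 0.20 and -0.18 ± 0.32, none called. The strongest of these, chr3:142199339-142199825, had 6.88 and 6.50 RPM in Gel and 8.61 and 5.77 in CuNZ@Gel, with overlapping groups. The one with the change of -0.18, chr3:142202728-142203136, had 1.75 and 1.05 RPM against 1.58 and 0.711.

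Gbp3 and Gbp7 encode further GTPases of the family. Gbp3 had 23.7 and 24.6 RPM in Gel and 21.95 and 17.5 in CuNZ@Gel, so its groups did not overlap, with CuNZ@Gel lower. Its gene change was -0.29 ± 0.13 (limma adjusted p = 0.0623), -0.44 without CuNZ@Gel replicate 1 (adjusted p = 0.0126) and -0.13 without CuNZ@Gel replicate 2 (adjusted p = 0.393). It was -0.11 with cyclic loess (adjusted p = 0.531) and -0.013 with total-read scaling (adjusted p = 0.941). The stronger of its regions, chr3:142265868-142266966, had 22.04 and 23.6 RPM in Gel and 20.01 and 15.9 in CuNZ@Gel, with a change of -0.34 ± 0.13 (limma adjusted p = 0.0319). With cyclic loess this was -0.11 (adjusted p = 0.539), and without CuNZ@Gel replicate 2 it was -0.18 (adjusted p = 0.266). The call was also lost without Gel replicate 1 (adjusted p = 0.0930) or Gel replicate 2 (adjusted p = 0.238). It lay in a decile of regions of which 55.8% were called lower. The other Gbp3 region, chr3:142256075-142256323, had a change of 0.27 ± 0.30 (adjusted p = 0.507). Gbp7 had 1 region, chr3:142235751-142236556, with 7.70 and 8.60 RPM in Gel and 10.1 and 7.99 in CuNZ@Gel. Its groups overlapped, and the gene change was 0.13 ± 0.18 (adjusted p = 0.574).

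**Figure D2:**
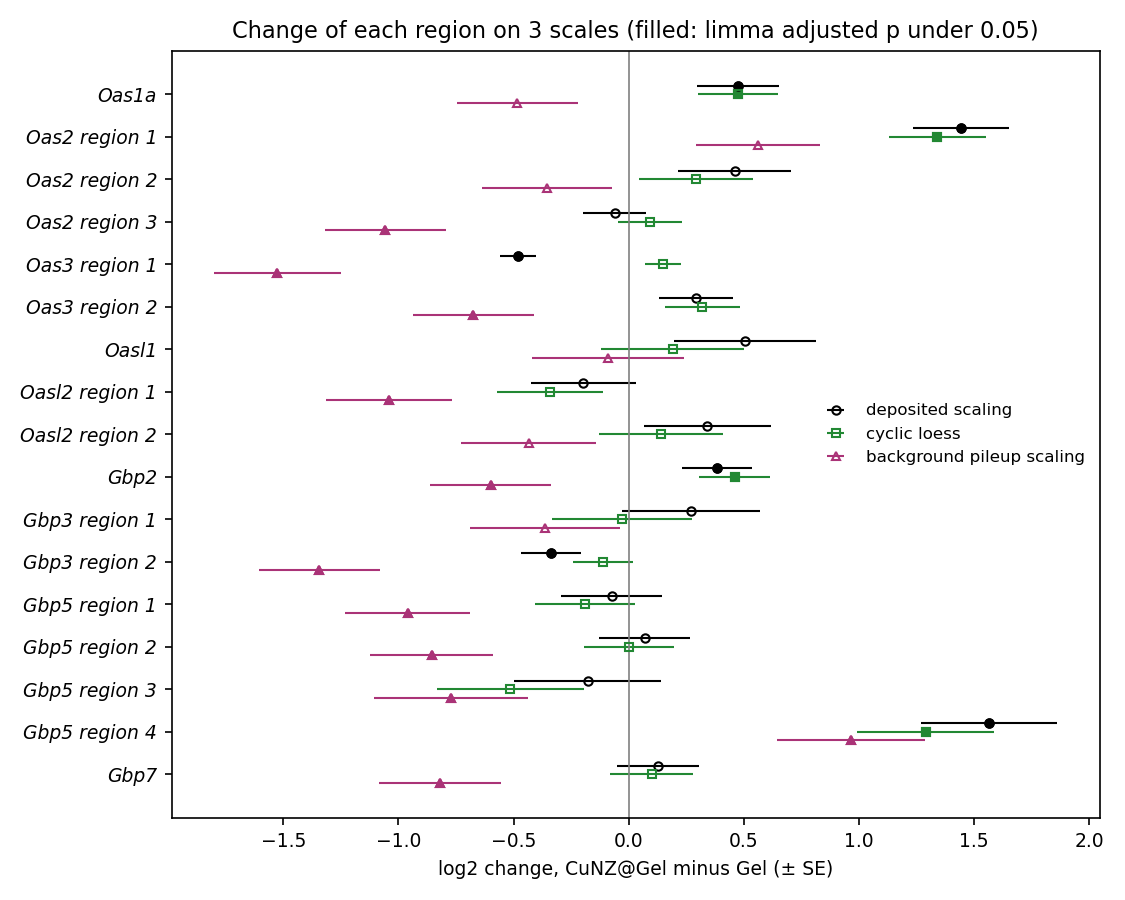
Change of the 17 OAS and GBP regions, CuNZ@Gel minus Gel in log2(RPM + 1), on the deposited scale, with cyclic loess and with background scaling; bars are standard errors, filled points have a limma adjusted p under 0.05, and regions of a gene are numbered by position. The Oas2 region at 1.44 and the Gbp5 region at 1.57 stand to the right of the others on the deposited scale.

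Over the 17 regions, 4 were called higher and 2 lower, where 21.2% of all 77014 tested regions were called higher and 21.9% lower. The called regions were those of Gbp2 and Oas1a and 1 each of Gbp5 and Oas2 (higher) and 1 each of Oas3 and Gbp3 (lower). The median change was 0.27, beside -0.00 over all regions, and was 0.34 for OAS and 0.10 for GBP regions. The groups did not overlap in 7 regions with CuNZ@Gel higher and in 3 with CuNZ@Gel lower, beside 33.7% and 34.6% of all. The count called higher was 2 without Gel replicate 2 or without CuNZ@Gel replicate 1, and the count called lower was 1 without Gel replicate 1, without Gel replicate 2 or without CuNZ@Gel replicate 2. Cyclic loess called 4 higher and 0 lower, beside 18.8% and 13.8%. Background scaling called 1 higher and 10 lower, beside 4.85% and 60.6%.

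Peaks were called by the authors in each library separately. Of the 17 regions, 8 held a peak in all 4 libraries (39.6% of all regions did), 2 in both Gel libraries only (11.0%) and 0 in both CuNZ@Gel libraries only (2.28%). With 2 libraries against 2 an exact permutation test cannot give a p below 0.33, so these counts are a description. The Oas2 region with the change of 1.44 held a peak in every library, with the authors' fold enrichment at 7.25 and 5.31 in Gel and 5.98 and 8.07 in CuNZ@Gel. The Gbp5 region with the change of 1.57 held a peak in CuNZ@Gel replicate 2 only, with a fold enrichment of 8.16 and a -log10 q of 13.1. Gbp3's stronger region had fold enrichments of 14.9 and 14.2 in Gel and 7.42 and 8.78 in CuNZ@Gel, and the strong Oas3 region 11.5, 10.9, 9.45 and 9.45. Peak calls also follow depth, and 14 and 12 member regions held a peak in the Gel libraries and 9 and 11 in the CuNZ@Gel libraries.

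The GBP members lie together in 131.179 kb of chromosome 3, with 9 regions, 8 of them members'. Of these 9 regions, 2 were called higher and 1 lower, beside 21.2% and 21.9% of all regions. Oas1a, Oas2 and Oas3 lie in 186.479 kb of chromosome 5 with other Oas genes. Of 23 regions there, 4 were called higher and 5 lower, with a median of -0.17, beside the same shares of all regions. With cyclic loess the counts were 4 and 6, beside 18.8% and 13.8% of all regions. Outside the members, the higher calls in this cluster were 2 regions of Oas1g and Oas1f, named here after their values were seen. The Oas1g region, chr5:121035362-121035858, had 2.57 and 2.72 RPM in Gel and 7.51 and 9.15 in CuNZ@Gel (change 1.35 ± 0.22, limma adjusted p = 9.24e-07; 1.23 with cyclic loess). The Oas1f region, chr5:120969038-120969586, had 2.45 and 2.41 against 5.22 and 7.64 (limma adjusted p = 0.000118; 0.95 with cyclic loess). Neither pair of groups overlapped. The regions called lower outside the members were 4, also named after their values were seen: 1 of Oas1c at -0.72, 1 of Oas1f at -0.57, 1 of Oas1h at -0.73 and 1 of Oas1g at -0.73 (limma adjusted p = 0.0498, 0.00741, 0.00822 and 0.0126). Each of these 4 calls was lost without Gel replicate 2. Oas1f and Oas1g thus held regions called in both directions. Oasl1 and Oasl2 lie apart on chromosome 5, in 29.593 kb with 3 regions and no call. A further Gbp cluster on chromosome 5 holds no member; 0 of its 7 tested regions were called higher and 2 lower (0 and 4 with cyclic loess), with a median of -0.49, beside 21.2% and 21.9% of all regions.

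**Figure D3:**
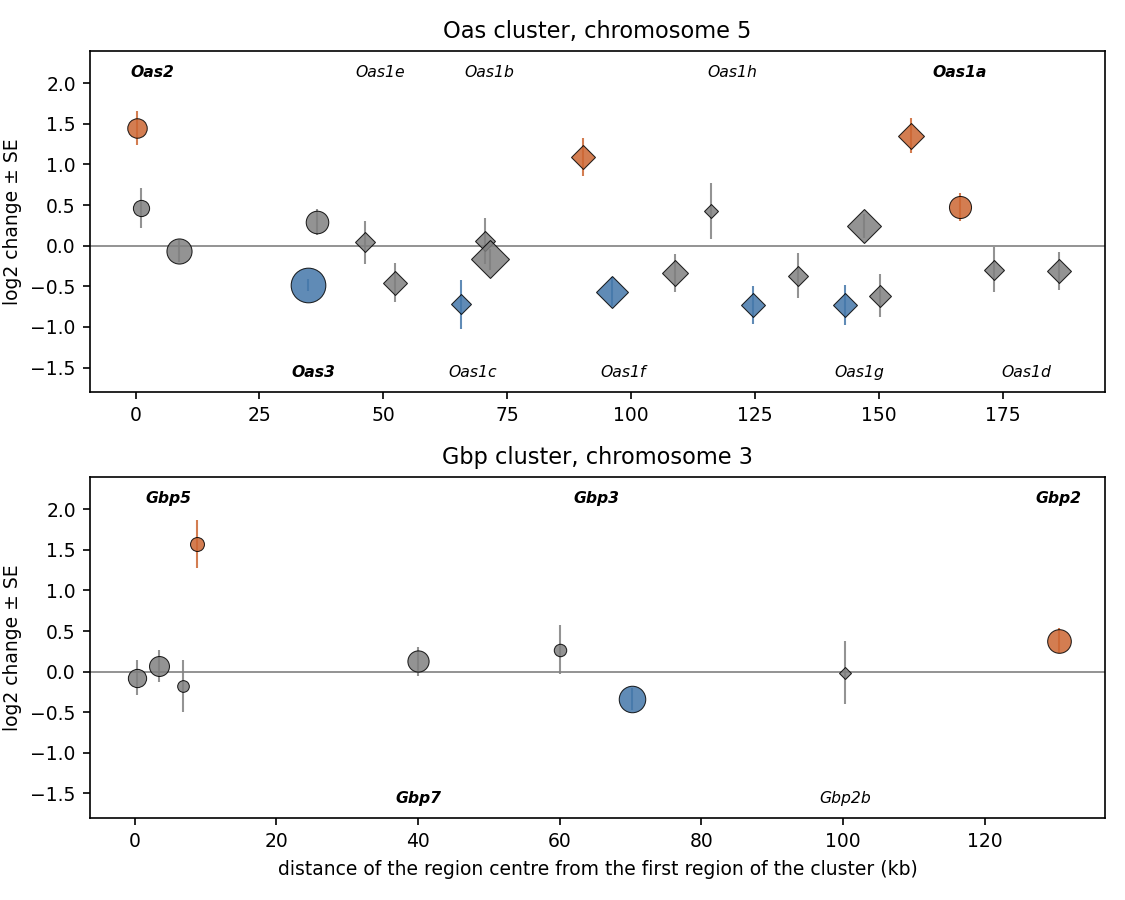
Change of each region against its distance in kb from the first region, in the Oas cluster of chromosome 5 and the Gbp cluster of chromosome 3; circles are regions of the 9 members and diamonds are other regions, with size following mean RPM. Orange regions were called higher (limma adjusted p under 0.05), blue regions lower and grey regions were not called. Higher and lower calls lie among each other in the Oas cluster, 4 and 5 of 23, beside 21.2% and 21.9% of all regions.

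Levels were compared between genes as mean RPM per kb of their regions. Oas3 stood highest at 45.8, with 38.6 to 52.5 over the 4 libraries, at or above 92.4% of genes. Gbp3 at 16.3, Oas2 at 13.0, Gbp7 at 10.7, Oas1a at 10.4, Gbp5 at 9.83 and Gbp2 at 8.96 followed, each overlapping its neighbours over the libraries. Oasl2 at 5.33 and Oasl1 at 3.75 were lowest, and only 4.45% of genes lay at or below Oasl1. Neighbours in this order were separated in range only between Oas3 and Gbp3 and between Gbp2 and Oasl2. Nearest patterns were sought among 15279 genes with a symbol, leaving out microRNA genes and provisional names such as those of Gm and a number. The genes nearest to Oasl1, the OAS gene with the largest change on the deposited scale, by Euclidean distance of log2 values over 4 libraries were Rprml (0.0729), Or52b4 (0.131) and Scarf1 (0.140). Those nearest to Gbp2, the GBP gene with the largest change on that scale, were Fhit (0.127), Nfrkb (0.130) and Umodl1 (0.144).

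The counts of called genes in the lists stand beside 20.5% higher and 36.1% lower over all genes tested, and beside 20.7% and 15.4% with cyclic loess. Of 3 OAS pathway partners (Abce1, Pde12 and Eif2ak2), 0 were called higher and 1 lower, with a median of -0.21. The one called lower was Abce1, which encodes an ATPase of ribosome recycling, at -0.67 (limma adjusted p = 3.12e-06). With cyclic loess 0 of the 3 were called. The 7 other mouse Oas genes had 0 calls as genes, with a median of -0.27, and 0 higher and 3 lower with cyclic loess. Of the 7 other mouse Gbp genes 6 had regions, and 0 were called higher and 2 lower, with a median of 0.05. These were Gbp8 at -1.07 (adjusted p = 5.63e-05) and Gbp9 at -0.49 (adjusted p = 0.00853), and 2 were also called lower with cyclic loess. Without Gel replicate 2 the Gbp9 call was lost (-0.44, adjusted p = 0.101).

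Interferon receptors and signalling genes were called lower in 9 of 11 cases and higher in 0, with a median of -0.51. They included Irf1, a transcription factor of GBP induction, at -0.88 (limma adjusted p = 1.10e-10), and the type I interferon receptor genes Ifnar1 at -0.81 (adjusted p = 7.78e-10) and Ifnar2 at -0.70 (adjusted p = 1.30e-10). All 5 brakes on interferon signalling were called lower (median -0.61), Socs3 at -0.66, Socs1 at -0.65 and Ptpn6 at -0.61 among them. With cyclic loess the signalling genes had 2 higher and 5 lower calls, and the brakes 0 and 2. Of the named brakes, Socs3 (-0.13) and Ptpn6 (-0.19) were still called there, and Socs1 was not (-0.0095, limma adjusted p = 0.928). The 8 housekeeping controls were also all called lower on the deposited scale, with a median of -0.68, and 1 higher and 3 lower with cyclic loess.

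Of 11 tested genes for nucleic acid sensing and interferon induction, 0 were called higher and 6 lower, with a median of -0.27. The counts were 0 and 1 with cyclic loess and 2 and 1 with total-read scaling. Mavs, the mitochondrial adaptor of RNA sensing, was at -0.58, Irf7 at -0.44 and Irf5 at -0.39. With cyclic loess none of these was called (Mavs at -0.18, Irf7 at -0.16 and Irf5 at 0.05). With total-read scaling Mavs was still called (-0.30), and Irf7 (-0.16) and Irf5 (-0.11) were not. Other interferon-induced antiviral genes gave 2 higher and 4 lower calls of 10 tested, with a median of -0.30, which is near the shares over all genes. The higher ones were Ifit3, which binds foreign RNA with other Ifit proteins, at 0.55 (limma adjusted p = 0.0346), and Rsad2, which encodes viperin, at 0.38 (adjusted p = 0.00834). The Ifit3 call was lost without Gel replicate 1 (0.50, adjusted p = 0.120), Gel replicate 2 (0.60, adjusted p = 0.0606) or CuNZ@Gel replicate 1 (0.22, adjusted p = 0.409). The Rsad2 call was lost without Gel replicate 1 (0.31, adjusted p = 0.0997). Cyclic loess called 0 of these 10 higher and 1 lower, and with background scaling Ifit3 was at -0.38 and Rsad2 at -0.64. Bst2, which encodes tetherin, was called lower at -0.47, but not with cyclic loess (-0.16, adjusted p = 0.291). Other interferon-inducible GTPases had 0 higher and 2 lower calls of 5 tested (Mx2 at -0.56, Irgm1 at -0.37, median -0.05), and 0 and 1 with cyclic loess. On that scale Mx2 was still called at -0.47, and Irgm1 was not (-0.12, limma adjusted p = 0.360). Of 5 inflammasome genes 0 were called higher and 3 lower, with a median of -0.29, against 1 higher and 1 lower with cyclic loess and with total-read scaling. These were Gsdmd, which encodes the pore-forming gasdermin D, at -0.63 but -0.082 with cyclic loess (adjusted p = 0.363), Aim2 at -0.41, and Nlrp3 at -0.16 but at 0.26 with cyclic loess. The Nlrp3 call was also lost without Gel replicate 1 (adjusted p = 0.0561) or Gel replicate 2 (adjusted p = 0.0652).

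**Figure D4:**
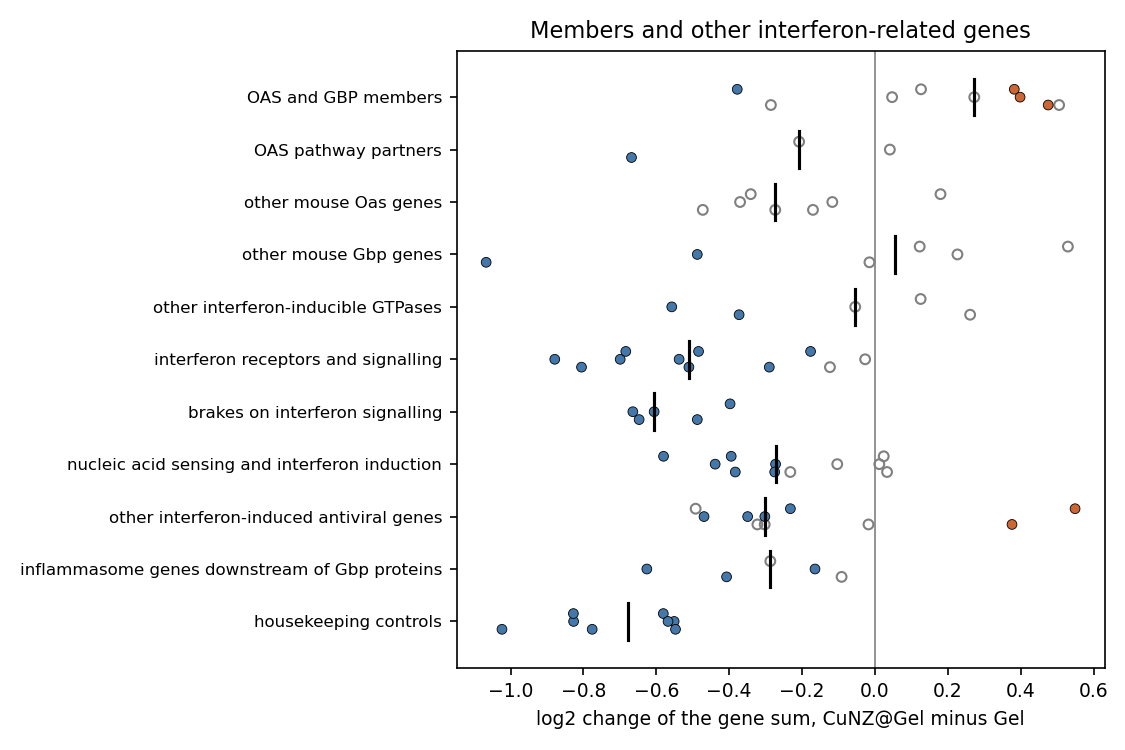
Change of each gene, CuNZ@Gel minus Gel in log2(sum of RPM + 1) on the deposited scale, for the 9 OAS and GBP genes and for each list of related genes; bars are medians and filled points have a limma adjusted p under 0.05. The median is 0.27 for the 9 members, -0.51 for interferon receptors and signalling genes and -0.68 for housekeeping controls.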

How the data were processed

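Accessibility comes from 4 ATAC-seq libraries, 2 per group, with groups from the sample titles. The submitters' processing notes name MACS2 2.2.8, Picard 2.27.5, SAMtools 1.17, Bowtie2 2.3.4.3, fastp 0.23.1 and build GRCm39. The roles of these tools, and the treatment of reads that fit several copies of a gene family, were not given in the sources used here, so values of near-identical Oas and Gbp copies are uncertain. The authors deposited a log2 value for each region and library, read as log2(RPM + 1) because reversing it gave whole reads for low values to within 0.1. The product of reads and the implied scaling factors (0.910 and 0.902 for Gel, 1.11 and 1.10 for CuNZ@Gel) gives RPM. The deposited peak lists hold, per the file headers, a fold enrichment, -log10 p- and q-values and a score for each peak, called per library; the lowest -log10 q was 1.303. These are the authors' values and only describe peaks. Merging the lists with bedtools 2.31.1 (gap at most 1 base) gave 80929 regions in the order of the value tables, which gave the coordinates, counted from 1. Positions within genes were not analysed here.

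Regions (log2 values) and genes (log2 of summed RPM + 1) were each fitted in full with limma 3.58.1 in R 4.3.3 (two-sided, with an intensity trend, p-values adjusted by Benjamini-Hochberg, threshold 0.05), after keeping those with at least 10 reads at the median depth (0.710 per 1000000 reads) in 2 libraries and 15 in all. This left 77014 regions and 25900 genes, and all 17 member regions and 9 member genes passed. On simulated data with known changes, 48.5%, 86.6% and 92.5% of genes changed by 0.5, 1 and 1.5 (log2) were called, and 12.1%, 65.7% and 80.6% of regions. Only 66 or 67 features were changed per size, in both directions, with a fixed spread between replicates and no trend with level. Far more features were called in the real data, so these percentages do not give the sensitivity here. Alternatives changed the scaling, filter, pseudocount, test, replicate block or libraries used. Named were all members, per member the strongest region and those with the largest rise and fall, up to 3 called genes per list by size of change, and the 3 nearest patterns to 1 gene per family. 1 listed gene is not reported here. The members and lists were chosen with earlier results of these data known.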

Additional observations from a re-analysis of the deposited data

How the results depend on the processing

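Of the alternatives run on the changes of named genes and regions, 648 values kept direction and side of the threshold, 14 gained a call, 63 lost one and 40 changed sign. The cause was not tested where none is given. Member genes called lower, 1 on the deposited scale, numbered 0 with total-read scaling or cyclic loess, 7 with background scaling, and 2 with voom or the strongest region only. Genes called higher, 3, numbered 4 with total-read scaling or cyclic loess, 0 with background scaling and 2 with the strongest region. Member regions called lower, 2, numbered 1 with total-read scaling, 0 with cyclic loess and 10 with background scaling. Those called higher, 4, numbered 6 with total-read scaling and 1 with background scaling. Leaving out each library gave 0 to 4 genes higher and 1 to 2 lower, and 2 to 5 regions higher and 1 to 2 lower. With equal numbers of top peaks, 1 region held peaks in both Gel libraries only. Over all 77014 regions 16314 were called higher and 16855 lower, against 23142 and 9155 with total-read scaling, 14457 and 10612 with cyclic loess, 3738 and 46698 with background scaling and 7425 and 16244 with the stricter filter. Over all genes these were 5319 and 9358, against 8886 and 4840, 5356 and 3999, and 718 and 19551 for the first 3 of these.

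Background scaling, which moved the median of all genes to -1.06 and of regions to -0.82, turned Oas1a to -0.48, Oas2 to -0.62, Oasl1 to -0.091, Oasl2 to -0.88, Gbp2 to -0.60, Gbp5 to -0.72, Gbp7 to -0.82, Ifit3 to -0.38 and Rsad2 to -0.64. Relative to that median, Oas2 was at 0.44, Gbp2 at 0.46 and Oas3 at -0.36. It also turned regions of Gbp5 (chr3:142199339) to -0.86, Gbp7 to -0.82, Gbp3 (142256075) to -0.36, Gbp2 to -0.60, Oasl2 (115040424) to -0.43, Oasl1 to -0.091, Oas2 (120879731) to -0.36, Oas3 (120915610) to -0.67 and Oas1a to -0.48. Cyclic loess turned Oas3 to 0.18 and its strong region to 0.15, Oasl2 to -0.14, regions of Gbp3 (142256075) to -0.030 and Oas2 (120887442) to 0.094, Irf5 to 0.050 and Nlrp3 to 0.26. Total-read scaling turned regions of Gbp5 (142196164) to 0.16, Oasl2 (115035148) to 0.0325 and Oas2 (120887442) to 0.21, and Nlrp3 to 0.12. Taking the strongest region gave Oas2 -0.0615 and Oasl2 -0.20. Leaving out single libraries gave Oasl2 -0.17 to 0.26, Gbp7 -0.023 to 0.28, and regions of Gbp5 -0.32 to 0.18 (142196164), -0.18 to 0.32 (142199339) and -0.47 to 0.12 (142202728), and of Oasl2 -0.0835 to 0.77 (115040424).

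With the replicate number as a block, 3 member genes were called higher and 2 lower, Gbp3 being added at -0.29 (limma adjusted p = 0.0376), and 4 regions higher and 2 lower. Deviations of same-numbered libraries correlated at 0.0429 over genes and 0.0163 over regions. Whether same-numbered libraries shared more than a number is not said in the labels, and these correlations cannot decide it. The stricter filter left out 6 of the 17 member regions, those of Oasl1, Gbp5 (142202728 and 142204912), Gbp3 (142256075), Oasl2 (115040424) and Oas2 (120879731).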
